A study of Sus scrofa with 12 samples.

Results

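The ZNF and ZFP genes are the numbered zinc finger genes of the pig genome, here those whose name is ZNF or ZFP followed by a number. Of 22861 genes in the deposited table, 226 carried such a name, and the 199 that reached 1 RPKM (reads scaled to exon length and library total) in at least 3 of 12 libraries are the members described here, chosen by their measured level over all 4 groups, while the other 27 stayed under that level. They comprised 186 ZNF and 13 ZFP genes among the 13046 genes that passed the same expression rule and were tested. RNA came from porcine aortic valve interstitial cells, the fibroblast-like residents of the leaflet matrix, which were cultured on glass, named in the labels as the stimulus for calcification. The 4 groups of 3 biological replicates were Stage 1 (day 5), Stage 2 (day 8), Stage 3+DMSO and Stage 3+KPT, and all of them shared the glass surface and DMEM. DMSO, the solvent, or KPT was added at Stage 3, and no source used here gives the dose, the exposure time or a fuller name for KPT. The labels give no day for Stage 3. Stage, time in culture and DMSO cannot be told apart in comparisons of Stage 3+DMSO with Stage 1 or Stage 2. Code names that begin with KPT usually denote blockers of the nuclear exporter XPO1. Strain, age and the number of animals behind the cultures are likewise not stated. A p-value here sets a difference between groups against the spread of libraries within groups, and that spread may be technical.

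Most genes with these names encode C2H2 proteins, in which pairs of cysteines and histidines hold a zinc ion and fold a finger that reads DNA. Many carry a KRAB domain, which recruits the corepressor TRIM28 and through it SETDB1, a histone methyltransferase, to silence chromatin, often at transposable elements. Such genes lie in arrays that arose by local duplication. Other members have different jobs: the ZFP36 proteins have CCCH fingers and bring messenger RNAs with AU-rich elements to decay, ZNF598 marks collided ribosomes, and ZNF207 binds BUB3 at the mitotic spindle.

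The library totals inferred from the RPKM values were 13188023 to 24724019, and the members took 65641 to 149702 recovered reads per library, or 0.265% to 0.346% of the reads over genes. In each library the recovered reads over genes exceeded the inferred total (23287593 beside 13188023 in Stage 1 replicate 1). Read counts given here are therefore not shares of that total, and the reason was not tested. All 10 valve interstitial markers, among them VIM, COL3A1 and PDGFRA, passed the expression rule, and their summed level was 20522 to 28875 RPKM in the untreated and DMSO groups and 14244 to 15037 RPKM with KPT. Of 9 endothelial markers 8 were among the deposited genes and 4 passed. The sum over the 8 was 62.1 to 84.9 RPKM without KPT and 32.9 to 39.3 RPKM with it, and VWF was at 0 in the KPT libraries. Of 9 leukocyte markers 8 were among the deposited genes and 3 passed. The sum over the 8 was 237 to 308 RPKM over all groups, of which CD79A held the most, with CD163 and ITGAM at 0 in every group. None (0) of the 7 cardiomyocyte or 5 epithelial markers passed. The part of these marker shifts in the KPT results below was not tested. In bulk RNA, fewer cells of a type and less RNA per cell cannot be told apart.

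Zinc finger transcripts were mostly scarce. The median over members of the mean RPKM was 7.05, against 16.4 over all tested genes, 46 members averaged under 3 RPKM and only 16 reached 30 RPKM. The 10 highest were ZNF207 (138 RPKM), ZFP36L1 (133), ZNF664 (80.04), ZFP36L2 (51.9), ZNF330 (47.4), ZNF146 (47.0), ZNF22 (46.5), ZFP36 (46.2), ZFP2 (41.3) and ZNF251 (38.9). The spindle protein ZNF207 led, and all 3 RNA-decay genes of the ZFP36 family were among these 10. Among the members, 173 reached 1 RPKM in all 12 libraries and 26 in 3 to 11. Just inside the rule, by the third-highest RPKM of the 12 libraries, were ZNF385D (1.04), ZNF461 (1.11) and ZNF699 (1.14), and just outside were ZNF354C (0.983), ZNF454 (0.944) and a second gene ID named ZFP57 (0.938), whose other ID is a member.

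The summed level of the members was highest with KPT. Abundant members weigh most in such a sum. Several of them, such as ZFP36L1, ZNF354A and ZFP36, were called higher with KPT, and ZNF330 was called lower. The sum therefore does not show a rise shared by the family, and it was not compared with all tested genes. The sum over members was 2589, 2552 and 2560 RPKM in the KPT libraries, 2290, 2136 and 2178 RPKM with DMSO, 1996 to 2138 RPKM at Stage 2 and 2080 to 2146 RPKM at Stage 1, so every KPT library lay above all others. After median-ratio rescaling the KPT sums were still the highest, at 2384 to 2417 RPKM beside 2030 to 2230 RPKM elsewhere. The members' median did not separate the groups on that scale, at 6.41 to 6.87 RPKM with KPT and 6.37 to 6.78 RPKM at Stage 1. By group mean, 91 members were highest with KPT, 55 with DMSO, 29 at Stage 1 and 24 at Stage 2, or 45.7%, 27.6%, 14.6% and 12.1%, beside 41.1%, 25.3%, 21.7% and 11.9% of all tested genes. The first principal component of the members, with 53.5% of their variance, placed the KPT libraries at 5.11 to 5.70 and all others at 0.417 or below.

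Calls were made with limma on log2(RPKM + 1) over all tested genes, at a Benjamini-Hochberg adjusted p under 0.05. With KPT against DMSO, 58 members rose and 31 fell (29.1% and 15.6%), where 30.5% of all tested genes rose and 29.5% fell (60% called in either direction, against 44.7% of members). At Stage 2 against Stage 1, 25 members rose and 27 fell (26.1% of members, beside 40.7% of all tested genes, 16.3% higher and 24.4% lower). From Stage 2 to Stage 3+DMSO, 54 rose and 12 fell (33.2% of members, beside 44.1%, with 33% higher and 11.1% lower). Stage 3+DMSO against Stage 1 gave 55 rises and 14 falls (34.7% of members, beside 47.7%, with 30.5% higher and 17.3% lower). In each comparison the share of members called was therefore below that of all tested genes. The medians of the members' log2 fold changes were 0.06 with KPT, 0.02 for Stage 2 over Stage 1, 0.17 for Stage 3+DMSO over Stage 2 and 0.17 over Stage 1, beside 0.02, -0.05, 0.15 and 0.10 over all tested genes.

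Changes of 2-fold or more were counted on the log2(RPKM + 1) scale, which compresses the changes of scarce genes. Of the 199 members, 6 rose and 3 fell by that much with KPT, beside 6.15% and 8.24% of the 13046 tested genes. The member counts that follow are likewise out of 199 and are not percentages. Stage 3+DMSO against Stage 1 gave 5 such rises and no (0) such fall (5.12% and 2.28% of all genes), Stage 3+DMSO against Stage 2 gave 1 rise and 2 falls (3.65% and 1.17%), and Stage 2 against Stage 1 gave none (0) in either direction on this scale (1.89% and 2.38%). By limma-voom on the recovered reads, which adds no such offset, the counts were 11 and 7 with KPT (8.16% and 10.2% of all genes), 17 and 1 for Stage 3+DMSO against Stage 1 (7.49% and 3.41%), 7 and 2 against Stage 2 (6.19% and 1.89%), and 3 and 0 for Stage 2 against Stage 1 (2.98% and 3.99%). The libraries of the 2 groups did not overlap for 113 members with KPT, 81 at Stage 2 against Stage 1, 92 at Stage 3+DMSO against Stage 2 and 103 against Stage 1. Over all tested genes these shares were 65.2%, 52.5%, 51.1% and 59%, and over the members 56.8%, 40.7%, 46.2% and 51.8%.

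The direction of the KPT split held on every scaling tried, while those into Stage 3+DMSO did not. Member counts here are out of 199. With KPT the members numbered 57 higher and 33 lower after rescaling by the median ratio, and 70 and 25 after quantile normalization. As shares these were 28.6% and 16.6%, then 35.2% and 12.6%, beside 29.5% and 30.3%, then 31.1% and 29.3%, of all tested genes. From Stage 2 to Stage 3+DMSO the split became 25 higher and 21 lower by the median ratio and turned to 16 higher and 33 lower by quantiles, where all tested genes were balanced (20.1% and 19.5%, then 19.4% and 19.4%). Against Stage 1 it became 38 and 34, then 30 and 36 (22.7% and 24.2%, then 22.7% and 24.5%, of all genes). Stage 2 against Stage 1 moved from 25 and 27 to 31 and 21, then to 32 and 19 (19.8% and 20.6%, then 19.6% and 20.3%). Median-ratio rescaling moved the median over all genes from 0.15 to 0.01 for Stage 3+DMSO over Stage 2 and from 0.10 to 0.00 over Stage 1, so rises and falls into Stage 3 are relative to the deposited scale.

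**Figure D1:**
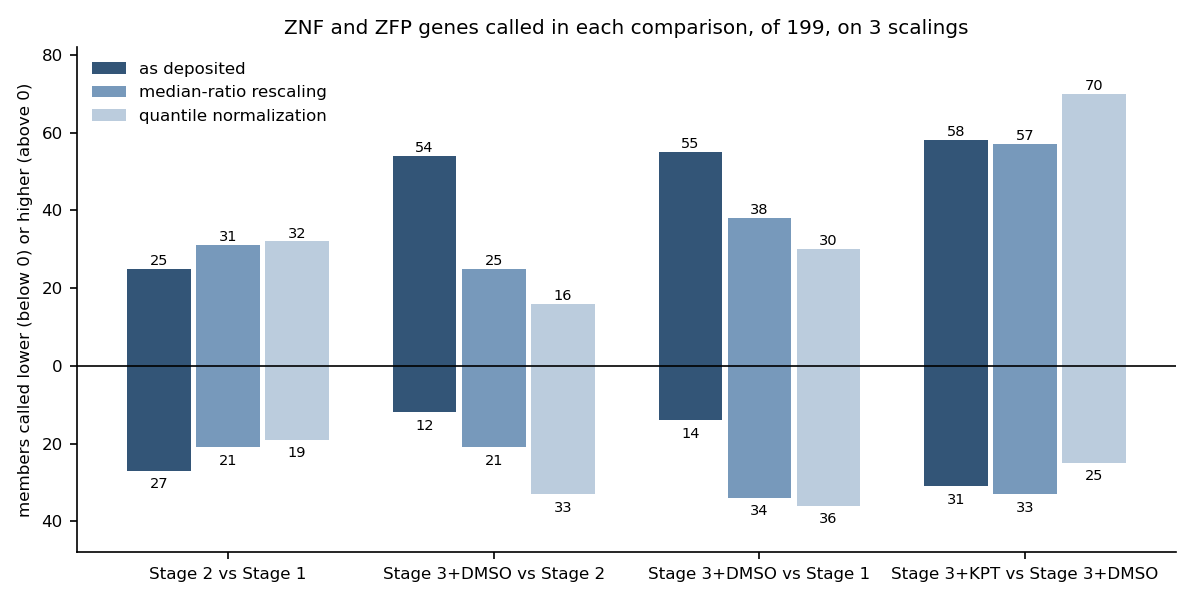
Bars give the number of the 199 members that limma called higher (above 0) or lower (below 0) in each comparison, on the deposited RPKM scale and on 2 other scalings. With KPT more members were higher than lower on all 3 (58 and 31, 57 and 33, 70 and 25), whereas both comparisons into Stage 3+DMSO reversed under quantile normalization (16 and 33, 30 and 36).

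Within bands of level, the share of members called was below that of all tested genes in 11 of 12 cases, 3 bands in 4 comparisons. Among members averaging under 3 RPKM, 30.4% were called with KPT, against 44.2% of all tested genes in that band. Between 3 and 10 RPKM the shares were 43.3% and 53.5%, and at 10 RPKM or more they were 57.1% and 66.2%. Members also stayed below other genes in each band for Stage 2 against Stage 1 (13.0%, 28.9% and 31.7%, beside 25.8%, 36.9% and 45.6%). The exception was Stage 3+DMSO against Stage 1, where 37.0% of the members under 3 RPKM were called, beside 33.6%. These shares are descriptions, since genes are not independent replicates.

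**Figure D2:**
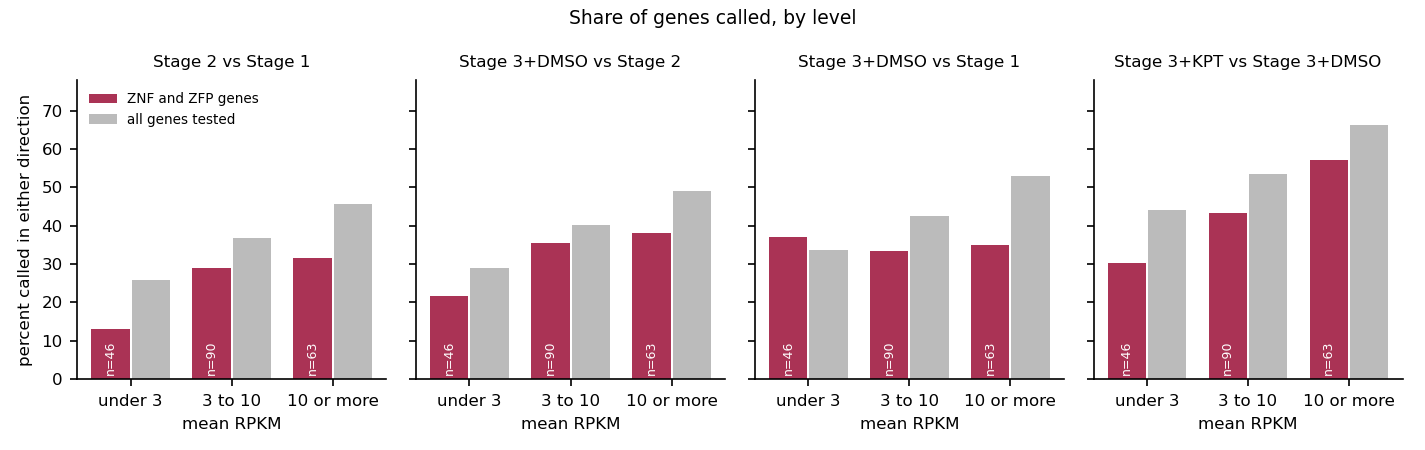
Columns show the percentage of genes called in either direction, for the members (red, with their number) and for all tested genes (grey), in 3 bands of mean RPKM. The red columns are lower in all bands and comparisons except Stage 3+DMSO against Stage 1 under 3 RPKM (37.0% and 33.6%).

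KPT gave the members' strongest responses. ZNF354A, a KRAB zinc finger gene (chromosome 2, 81246482 to 81272236, plus strand, in the deposited coordinates, whose build no source used here gives), measured 18.8, 18.7 and 21.2 RPKM at Stage 1, 15.4, 16.9 and 19.3 at Stage 2, 20.5, 16.3 and 19.0 with DMSO and 94.4, 82.5 and 85.7 with KPT. All 3 KPT libraries stood far above the other 9, which overlapped each other. The mean went from 18.6 ± 2.12 to 87.5 ± 6.13 RPKM (SD, n = 3; log2 fold change 2.18, SE 0.10, limma adjusted p = 1.88e-09). A table of IDs and symbols names this gene ID ZNF354B, its near relative, so which of the pair was counted is uncertain.

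ZNF532, which is related to the ZMYND8-binding proteins ZNF592 and ZNF687, showed the largest fall among members measured above 10 RPKM. Its levels were 21.6, 16.4 and 21.4 RPKM at Stage 1, 21.1, 21.2 and 18.8 at Stage 2 and 20.3, 20.7 and 20.5 with DMSO, but 5.90, 6.73 and 7.55 with KPT. No KPT library overlapped any other, and the 3 untreated or DMSO groups lay on one level. Relative to DMSO the mean fell by 1.48 on the log2 scale, from 20.5 ± 0.207 to 6.73 ± 0.823 RPKM (SE 0.11, limma adjusted p = 1.66e-07). ZNF687 had 12.8 ± 1.69 RPKM with DMSO and 14.8 ± 0.232 with KPT (limma adjusted p = 0.0767).

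**Figure D3:**
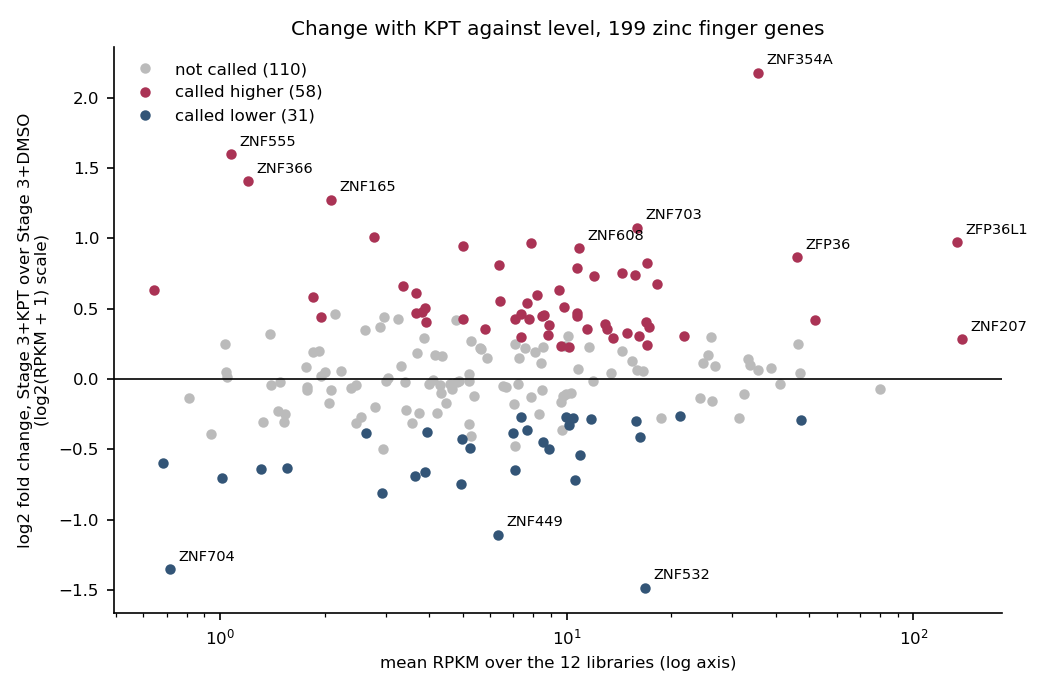
Each point is 1 of the 199 members, placed by its mean RPKM over the 12 libraries (log axis) and its log2 fold change with KPT over DMSO, and coloured by the limma call. ZNF354A (2.18) and ZNF532 (-1.48) stand apart from the other members above 10 RPKM, and ZFP36L1 (0.97) is the most abundant riser after ZNF207 (0.28).

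Several scarce transcripts also rose strongly with KPT. ZNF366, a corepressor of nuclear receptors also known from dendritic cells, had 1.14, 0.568 and 0.526 RPKM with DMSO and 4.03, 3.55 and 3.16 with KPT (217 and 1025 reads in all). By limma-voom its level was lower still at Stage 1 and Stage 2 (Stage 3+DMSO over these 1.25 and 1.95 on the log2 scale). With 0.568 and 0.526 under the 1 RPKM limit, its membership rested largely on the KPT libraries. The log2 fold change of 1.40 is therefore given without a test. ZNF165, a SCAN-domain gene, went from 1.19 ± 0.360 to 4.26 ± 0.453 RPKM (105 and 384 reads; log2 fold change 1.27, adjusted p = 5.54e-05 in limma). ZNF385A, an RNA-binding protein, had 1.35, 1.01 and 1.28 RPKM with DMSO and 3.06, 3.501 and 3.78 with KPT (log2 fold change 1.01, limma adjusted p = 0.000106). For ZNF165 and ZNF385A the KPT libraries all exceeded the DMSO libraries.

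Leaving aside ZNF704, given below, the next largest KPT falls were those of ZNF449, ZNF438, ZNF652 and ZNF395. ZNF449 on chromosome X measured 8.42, 7.30 and 9.64 RPKM with DMSO and 3.34, 3.39 and 3.38 with KPT, a log2 fold change of -1.11 (limma adjusted p = 0.000185). ZNF438 went from 3.76 ± 0.574 to 1.71 ± 0.264 RPKM and ZNF652, a transcriptional repressor, from 6.28 ± 0.194 to 3.39 ± 0.909 RPKM (log2 fold changes -0.81 and -0.75, limma adjusted p = 0.00011 and 0.000756). ZNF395 had 10.8 ± 1.52 RPKM with DMSO and 6.18 ± 1.08 with KPT (log2 fold change -0.72, limma adjusted p = 0.000591). In all 4 genes the groups did not overlap.

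Another 3 genes reached 1 RPKM in no library outside a single group. Their difference from the other groups was therefore fixed by the expression rule and is given without a test. The counts of called members include them, ZNF366, ZNF385B and ZNF461. ZNF555 reached 1 RPKM only with KPT, at 3.41, 3.37 and 3.62 RPKM (355 reads), against 0.844, 0.356 and 0.285 with DMSO (50 reads), a log2 fold change of 1.60. ZNF699, which lies 27.7 kb from ZNF555 on chromosome 2, likewise passed only with KPT, at 1.84, 1.75 and 1.14 RPKM, against 0.733, 0.722 and 0.501 with DMSO. ZNF704 passed only with DMSO, at 2.22, 1.47 and 1.51 RPKM (110 reads), and had 4 reads over the 3 KPT libraries.

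The RNA-decay genes ZFP36, ZFP36L1 and ZFP36L2 all rose with KPT, and on every scaling tried. ZFP36, the founding member, had 38.2, 42.5 and 38.9 RPKM at Stage 1, 41.2, 39.7 and 39.6 at Stage 2, 37.2, 34.3 and 39.0 with DMSO and 64.0, 72.1 and 67.8 with KPT. Its level was thus flat until KPT, where all libraries were higher (log2 fold change 0.87, SE 0.07, limma adjusted p = 3.32e-07). ZFP36L1 moved in every comparison, with 119.8, 120.0 and 119.9 RPKM at Stage 1, 159.7, 176.2 and 186.3 at Stage 2, 95.6, 71.2 and 76.1 with DMSO and 156.4, 151.3 and 168.6 with KPT. It rose by 0.53 to Stage 2, fell by 1.10 to Stage 3+DMSO and rose by 0.97 with KPT on the log2 scale (limma adjusted p = 0.000881, 2.89e-06 and 2.07e-06). Only the KPT and Stage 2 libraries overlapped. ZFP36L2 climbed from 34.4 ± 1.03 RPKM at Stage 1 to 47.2 ± 1.82 at Stage 2, had 54.3 ± 11.8 with DMSO and reached 71.8 ± 1.58 with KPT (KPT over DMSO 0.42, limma adjusted p = 0.00881). The 3 relatives therefore followed 3 courses over the stages. With DMSO the libraries of ZFP36L2 measured 41.4, 57.0 and 64.5 RPKM.

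**Figure D4:**
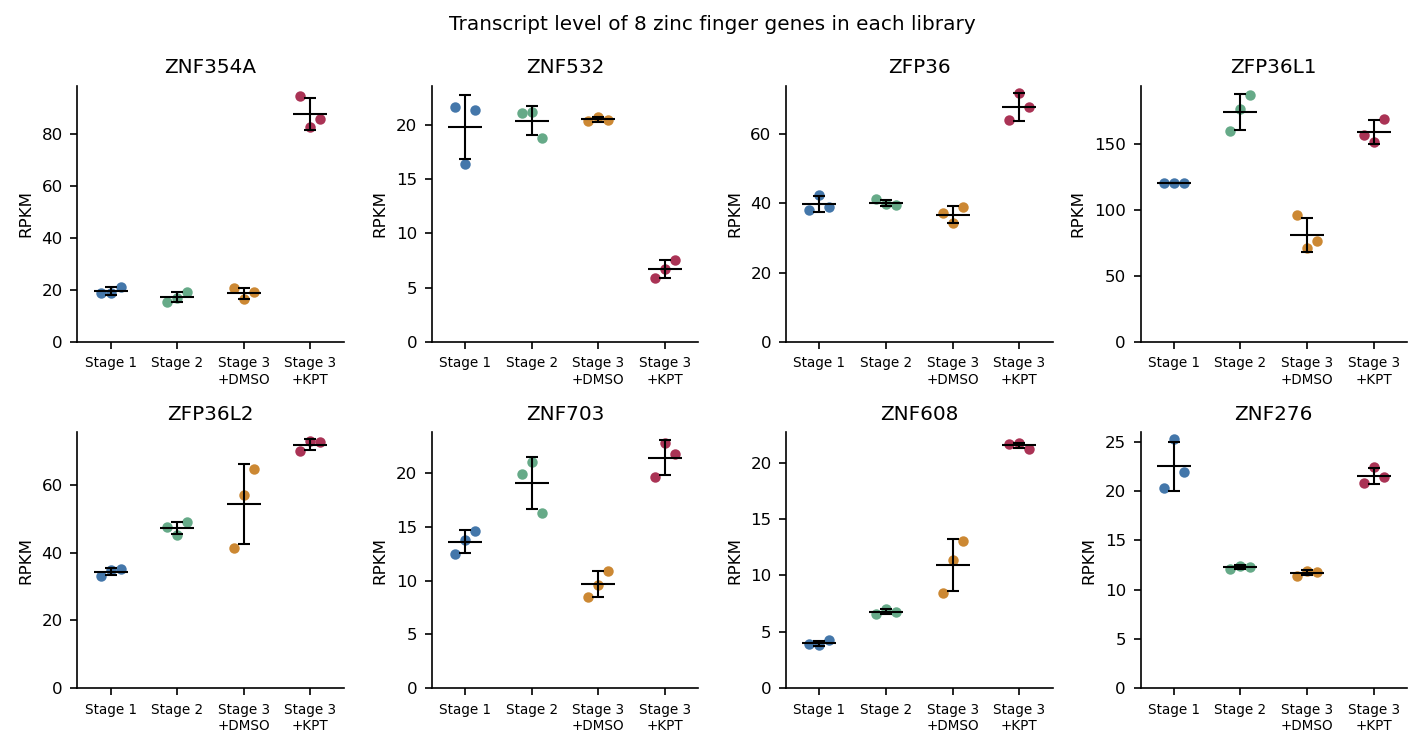
Points are RPKM values of single libraries for 8 members, with the group mean and SD (n = 3) in black, and each axis starts at 0. ZNF354A and ZFP36 differ with KPT alone, ZNF532 is low with KPT alone, ZFP36L1 and ZNF703 dip with DMSO, ZNF608 is lowest at Stage 1 and highest with KPT, and ZNF276 is high at Stage 1 and with KPT.

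Of 12 mesenchymal and developmental regulators 8 were expressed, and 4 of these rose and none (0) fell with KPT, beside 30.5% and 29.5% of all tested genes. ZNF703, a corepressor of the NET family, had 12.5, 13.8 and 14.6 RPKM at Stage 1, 19.9, 21.0 and 16.3 at Stage 2, 8.48, 9.59 and 10.9 with DMSO and 19.7, 22.8 and 21.8 with KPT. The DMSO libraries were the lowest of all 12, and the KPT and Stage 2 libraries overlapped. It changed by 0.45, -0.91 and 1.08 on the log2 scale for Stage 2 over Stage 1, Stage 3+DMSO over Stage 2 and KPT over DMSO (limma adjusted p = 0.00703, 4.95e-05 and 3.87e-06). ZNF503, its close relative, rose from 7.44 ± 0.449 RPKM with DMSO to 12.1 ± 0.594 with KPT (0.63, limma adjusted p = 0.000164), and fell from 10.8 ± 0.943 at Stage 1 to 7.55 ± 0.941 at Stage 2 (-0.47, limma adjusted p = 0.00304).

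ZNF608, another of these regulators, rose from Stage 1 to Stage 2 and on to Stage 3+DMSO, and was higher again with KPT than with DMSO. Its libraries measured 3.89, 3.86 and 4.26 RPKM at Stage 1, 6.58, 7.02 and 6.76 at Stage 2, 8.48, 11.4 and 13.0 with DMSO and 21.6, 21.7 and 21.2 with KPT. No 2 groups overlapped, and these differences were 0.64, 0.60 and 0.93 on the log2 scale (limma adjusted p = 0.00126, 0.00165 and 2.68e-05). Its paralog ZNF609 had 12.7, 13.1 and 11.5 RPKM as means of the 3 groups without KPT and rose to 14.9 ± 0.481 with it (0.35, limma adjusted p = 0.00154). ZNF281, a repressor studied in stem cells and epithelial-mesenchymal transition, fell early, from 43.5 ± 1.40 RPKM at Stage 1 to 28.2 ± 1.90 at Stage 2 (-0.61, limma adjusted p = 5.66e-05), and had 29.3 ± 2.29 and 32.4 ± 1.25 later. ZNF423, a partner of SMAD proteins, measured 0.926 ± 0.0187 RPKM at Stage 1 and 1.99 ± 0.109 with DMSO (0.63, limma adjusted p = 0.00122). ZNF148 rose between the same groups, from 21.3 ± 1.56 to 26.7 ± 1.33 RPKM (0.32, limma adjusted p = 0.0217), a call that median-ratio rescaling and quantile normalization ended. ZNF462 passed in no comparison, at group means of 2.32 to 4.03 RPKM.

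Among 9 expressed chromatin cofactors, 2 rose and 3 fell with KPT, near the shares of all tested genes (30.5% and 29.5%). ZNF217, a DNA-binding partner of the CoREST corepressor, peaked at Stage 2, with 6.53, 6.40 and 6.33 RPKM at Stage 1, 10.9, 11.8 and 11.7 at Stage 2, 7.41, 7.54 and 7.93 with DMSO and 9.78, 9.36 and 10.01 with KPT. None of the 4 groups overlapped. The rise to Stage 2 was 0.74, the fall to Stage 3+DMSO 0.53 and the rise with KPT 0.31 on the log2 scale (limma adjusted p = 1.92e-05, 0.00019 and 0.00407). ZNF516 fell from 8.60 ± 1.23 RPKM at Stage 2 to 5.29 ± 0.324 with DMSO and was 7.44 ± 0.585 with KPT (-0.60 and 0.42, limma adjusted p = 0.00141 and 0.00815). ZNF451, a SUMO ligase, fell slightly with KPT (-0.27, limma adjusted p = 0.0284), a call lost when any of the KPT libraries was left out. ZNF274, which recruits SETDB1, rose from 2.50 ± 0.428 to 4.21 ± 0.526 RPKM between Stage 2 and Stage 3+DMSO (0.58, limma adjusted p = 0.00476), while ZNF618 and ZNF827 passed in no comparison.

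A list of 4 genes was headed housekeeping promoters. Of these genes, 3 were called higher with KPT and none (0) lower, beside 30.5% and 29.5% of all tested genes. The heading rests on ZNF143 and its paralog ZNF76, and of this pair only ZNF143 was called. ZNF410 and ZNF335 have the other roles given below, so the count is not a result for housekeeping activators as a class. ZNF143, which binds promoters of many housekeeping and small nuclear RNA genes, had 14.1, 15.6 and 14.6 RPKM with DMSO and 24.3, 24.2 and 24.0 with KPT (0.68, SE 0.09, limma adjusted p = 4.62e-05). Its paralog ZNF76 had 16.6 ± 2.49 and 17.5 ± 2.85 RPKM in these groups (limma adjusted p = 0.674). ZNF410, an activator of CHD4, rose from 14.0 ± 0.0947 to 17.4 ± 0.993 RPKM (0.29, limma adjusted p = 0.0135), a call lost without KPT replicate 1. CHD4 itself had 86.4 ± 6.30 and 94.0 ± 0.493 RPKM (limma adjusted p = 0.106). ZNF335, part of histone methyltransferase complexes, went from 7.76 ± 0.482 to 10.4 ± 1.04 RPKM (0.38, limma adjusted p = 0.00767). ZNF335 and ZNF410 each overlap a gene on the opposite strand, and no source states whether strand was used in counting.

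All 5 expressed RNA-binding and processing members were called with KPT, 3 higher and 2 lower, where 60% of all tested genes were called. So short a list is a description only. ZNF326, of the complex that links splicing to elongation, rose from 14.5 ± 1.08 to 25.1 ± 3.81 RPKM (0.74, limma adjusted p = 0.000303), and ZNF830 from 16.9 ± 0.649 to 20.1 ± 1.18 RPKM (0.24, limma adjusted p = 0.028), the latter lost without DMSO replicate 1 or 2 or KPT replicate 1 or 3. ZNF106 and ZNF346, a double-stranded RNA binder, fell from 19.0 ± 1.18 to 14.0 ± 0.781 RPKM and from 10.4 ± 1.42 to 7.30 ± 0.596 RPKM (-0.41 and -0.45, limma adjusted p = 0.0003 and 0.00753). The ribosome-linked pair split. ZNF598 went from 21.2 ± 1.31 to 17.5 ± 0.618 RPKM and ZNF622, of ribosomal subunit assembly, from 15.2 ± 1.62 to 19.0 ± 1.15 RPKM (-0.26 and 0.31, limma adjusted p = 0.0169 and 0.0144). Leaving out DMSO replicate 3 or KPT replicate 1 ended the first of these calls, and leaving out DMSO replicate 1 the second.

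ZNF207, the spindle protein, followed a dip and recovery, with 153.2, 143.8 and 146.2 RPKM at Stage 1, 105.7, 113.8 and 115.0 at Stage 2, 136.5, 134.9 and 125.5 with DMSO and 167.7, 155.0 and 161.0 with KPT. Its groups did not overlap. The fall to Stage 2 was 0.40 on the log2 scale and the KPT rise 0.28 (limma adjusted p = 0.000184 and 0.00099). The rise to Stage 3+DMSO (0.24, limma adjusted p = 0.00449) was lost after median-ratio rescaling (limma adjusted p = 0.283). A second gene of the same strand overlaps ZNF207.

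Between Stage 1 and Stage 2, 10 of the 12 most changed members by the naming rule kept their call in every alternative. The largest fall was that of ZNF276, which had 20.3, 25.2 and 21.9 RPKM at Stage 1, 12.0, 12.4 and 12.3 at Stage 2, 11.4, 11.9 and 11.8 with DMSO and 20.8, 22.4 and 21.4 with KPT. The KPT libraries thus lay within the Stage 1 range, and Stage 2 and DMSO lay below both. It fell by 0.82 to Stage 2 and rose by 0.82 with KPT on the log2 scale (limma adjusted p = 1.34e-05 and 2.35e-06). Further falls at Stage 2 were those of ZNF316, ZNF791, ZNF653 and ZNF202 (-0.78, -0.57, -0.56 and -0.55, limma adjusted p = 0.00125, 0.00937, 0.00529 and 0.00231). ZNF365, linked to DNA repair and the centrosome, rose from 0.779 ± 0.0424 to 2.43 ± 0.321 RPKM (52 and 162 reads; 0.94, limma adjusted p = 0.000492), and ZNF527 from 2.32 ± 0.518 to 4.70 ± 0.335 RPKM (0.79, limma adjusted p = 0.00278). The rise of ZNF614 (0.64, limma adjusted p = 0.0154) was lost in 3 alternatives. That of ZNF461 (0.60) was lost in 6, and both were lost without Stage 1 replicate 1 and without Stage 1 replicate 3. ZNF461 lay just inside the expression rule and may have passed it largely through the libraries where it was high. Its rise is therefore given without a test. ZNF330 and ZNF251 rose and ZNF22 fell by small steps (0.29, 0.20 and -0.35, limma adjusted p = 0.013, 0.0455 and 0.0454), each lost on leaving out Stage 1 replicate 2 or 3. In all, these calls were lost in 3, 9 and 11 of 22 alternatives. Median-ratio rescaling and quantile normalization each ended the call of ZNF22. ZNF664, ZNF146 and ZFP2 passed in no comparison.

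Into Stage 3+DMSO the leading riser was ZNF239, a C2H2 gene on chromosome 14, with 5.997, 6.72 and 6.36 RPKM at Stage 1, 7.60, 8.28 and 7.40 at Stage 2, 17.0, 16.4 and 17.1 with DMSO and 17.6, 15.4 and 17.1 with KPT. Both Stage 3 groups were above all earlier libraries and overlapped each other. The rise from Stage 2 was 1.03 (SE 0.08, limma adjusted p = 1.67e-06), and the KPT difference was -0.02 (limma adjusted p = 0.883). ZNF32, 92.5 kb from ZNF239, took a like course, with means of 14.0 ± 2.24, 19.7 ± 2.48, 31.3 ± 3.69 and 34.0 ± 2.79 RPKM in group order (Stage 3+DMSO over Stage 1 1.12, limma adjusted p = 1.69e-05). ZNF428 had 24.2 ± 2.87, 24.0 ± 0.771, 42.1 ± 3.10 and 39.2 ± 4.74 RPKM and ZNF792 had 1.84 ± 0.164, 1.39 ± 0.188, 3.36 ± 0.227 and 3.26 ± 0.615 RPKM. Their rises from Stage 2 were 0.78 and 0.87 (limma adjusted p = 7.11e-05 and 0.000227), and all 4 of these genes kept that call on every scaling. ZNF362 also rose from Stage 2 (0.69, limma adjusted p = 0.00176). ZNF385B had a log2 fold change of 0.81 on 24 and 106 reads. It may have passed the expression rule largely through the libraries where it was high, so this change is given without a test.

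Falls from Stage 2 to Stage 3+DMSO were led by ZFP36L1, ZNF385A (-1.06, limma adjusted p = 0.000158) and ZNF703. ZNF667 had 8.26 ± 0.142 RPKM at Stage 1, 12.9 ± 2.15 at Stage 2, 7.63 ± 0.928 with DMSO and 13.9 ± 0.330 with KPT, so that its changes were 0.58, -0.68 and 0.79 (limma adjusted p = 0.00172, 0.000459 and 6.7e-05), and a gene on the opposite strand overlaps it. ZNF692 fell from 9.67 ± 0.678 to 6.36 ± 1.10 RPKM (-0.54, limma adjusted p = 0.00272). Over the whole course from Stage 1, ZNF365 (1.42), ZNF239 (1.28), ZNF70 (1.26) and ZNF608 (1.24) rose most (limma adjusted p = 1.26e-05, 1.46e-07, 0.000202 and 4.81e-06), followed by ZNF32, given above, and ZNF396 (0.99, limma adjusted p = 0.00106). ZNF277, the single expressed gene of a list headed signalling and cytoskeleton, rose too (0.62, limma adjusted p = 0.0288). That heading is not a result about its role. The call was lost without Stage 1 replicate 1 or 2 or DMSO replicate 1 or 2, and after median-ratio rescaling. The ID table gives ZNF70's ID another name, VPREB3.

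Across all 4 comparisons 56 members were called in none (0), 60 in 1, 39 in 2, 38 in 3 and 6 in 4, these last being ZFP36L1, ZNF207, ZNF217, ZNF608, ZNF70 and ZNF703. Such counts were not made over all tested genes, and some of the comparisons share libraries. Calls of ZNF207, ZNF217 and ZNF70 were lost in some alternatives. That of ZNF217 for Stage 3+DMSO against Stage 1 was lost in 11 of 22, including both rescalings. ZFP36L1, ZNF608 and ZNF703 kept all their calls. Stage 2 against Stage 1 and KPT against DMSO share no libraries. Of the 27 members lower at Stage 2, 13 were higher with KPT (48.1% of the first list and 22.4% of the 58 in the second) and 4 were lower again (14.8%). Of the 25 members higher at Stage 2, 9 were higher (36.0%) and 6 lower (24.0%) with KPT. Over all members 29.1% were higher and 15.6% lower with KPT. Over all tested genes, 30.9% of those lower at Stage 2 were higher and 34.5% lower with KPT, and 29.7% of those higher at Stage 2 were higher and 39.0% lower. These overlaps are counts without a test.

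In the genome the members were unevenly placed. Chromosome 6 held 56 of them, or 28.1%, beside 9.27% of all tested genes. With gaps of at most 250 kb, 54 members formed 9 arrays of 4 or more, the largest with 13 genes on chromosome 6. Arrayed members were scarcer, with a median mean level of 4.33 RPKM against 7.67 for the other 145. At Stage 2, 9 arrayed members rose and 1 fell (16.7% and 1.85%), and 16 and 26 of the other 145 did, beside 16.3% and 24.4% of all tested genes. After median-ratio rescaling the counts were 12 and 0, and 19 and 21, beside 19.8% and 20.6% of all genes. With KPT 10 and 5 arrayed members and 48 and 26 others were called higher and lower. These were 18.5% and 9.26%, and 33.1% and 17.9%, beside 30.5% and 29.5% of all tested genes. The difference between arrayed and other members was not tested, and the share of genes called was lower in the low bands of level. Neighbours need not move together: ZFP2, on the same chromosome and 91.8 kb from ZNF354A, had 43.6 ± 3.65 RPKM with DMSO and 42.5 ± 1.60 with KPT (log2 fold change -0.03, limma adjusted p = 0.792).

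**Figure D5:**
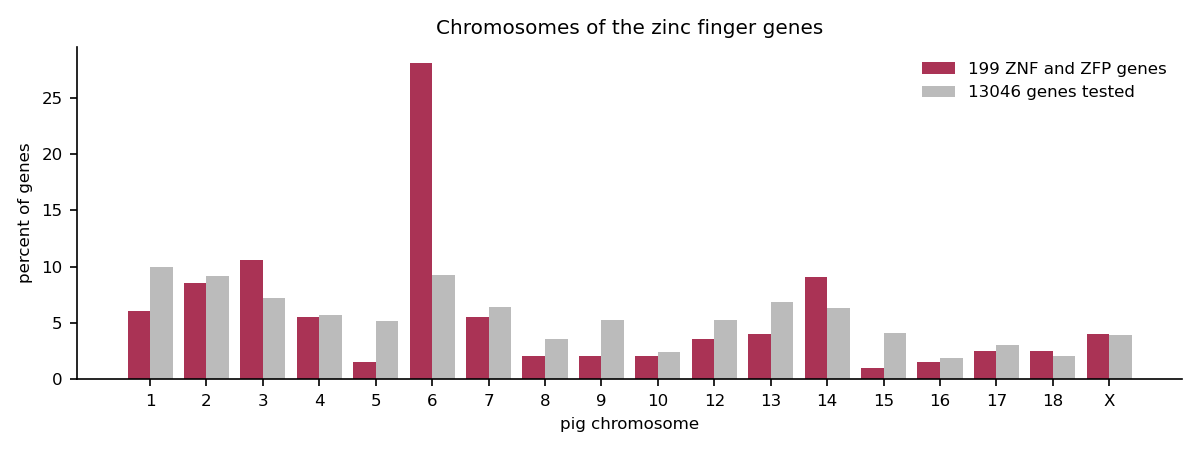
Columns give the percentage of the 199 members (red) and of the 13046 tested genes (grey) on each pig chromosome that holds a member. Chromosome 6 holds 28.1% of the members and 9.27% of the tested genes.

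Exon values come from the same reads as the gene values and are given as a description. For the 6 largest rises and 6 largest falls in each comparison, all exons at 1 RPKM or more moved with their gene, except in ZNF217 (9 of 10 exons) and ZNF608 (7 of 9 exons) between Stage 1 and Stage 2. As a description over the 12 libraries, which share the KPT contrast, the members most like ZNF354A were ZNF555, ZFP36 and ZNF366 (Pearson r = 0.974, 0.962 and 0.960), and those most like ZNF532 were ZNF398, ZNF518B and ZNF395 (Pearson r = 0.922, 0.906 and 0.898). For ZNF555 they were ZNF366, ZNF354A and ZNF596 (Pearson r = 0.984, 0.974 and 0.968). ZNF555 passed the expression rule only through the KPT libraries, and ZNF366 largely so. Their likeness to each other and to ZNF354A therefore follows in part from that rule.

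The corepressor machinery used by KRAB zinc finger proteins was read from a list of 25 genes, of which 18 were tested. With KPT 8 rose and 4 fell, beside 30.5% and 29.5% of all tested genes. DNMT1, the maintenance DNA methyltransferase, went from 29.5 ± 2.01 to 7.94 ± 0.721 RPKM and DNMT3B from 1.43 ± 0.298 to 0.2002 ± 0.0703 RPKM (-1.77 and -1.01, limma adjusted p = 3.42e-09 and 7.71e-05). HDAC2, a histone deacetylase, rose from 57.2 ± 0.512 to 105 ± 1.49 RPKM (0.87, limma adjusted p = 3.61e-06), while SETDB1 had 64.5 ± 2.87 and 70.0 ± 2.26 RPKM (limma adjusted p = 0.0859). At Stage 2 against Stage 1, 3 of the 18 rose and 5 fell, beside 16.3% and 24.4% of all tested genes. For Stage 3+DMSO against Stage 2 these counts were 5 and 3, beside 33% and 11.1% of all tested genes. Of 40 listed C2H2 factors that bear other names 23 were tested. With KPT 5 were called higher and 12 lower, beside 30.5% and 29.5% of all tested genes. Their difference from the members was not tested. SNAI2, a regulator of epithelial-mesenchymal transition, had 60.1 ± 22.4 RPKM with DMSO and 2.95 ± 0.593 with KPT (-3.90, limma adjusted p = 3.74e-09), and KLF9, a Krüppel-like factor, rose from 22.2 ± 0.963 to 77.8 ± 4.05 RPKM (1.77, limma adjusted p = 2.79e-09).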

How the data were processed

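Messenger RNA was sequenced from 12 libraries (TruSeq Stranded mRNA, per the labels' protocols), and TopHat2 2.1.0 did the alignment, per the submitters' processing notes. The authors deposited RPKM values for genes and exons. The read counter, build and annotation are not given in the sources read. The members, role lists and tests were chosen with earlier results of these data known. RPKM times exon length and an inferred library total gave whole reads for 100% of values, within 0.001 of a read. limma 3.58.1 (R 4.3.3, with an expression trend) was run on log2(RPKM + 1) for 13046 genes with RPKM of at least 1 in at least 3 of 12 libraries, with 1 coefficient per group and Benjamini-Hochberg adjustment. Fold changes on this scale are too small for low genes. Named members were the 6 largest rises and falls per comparison among called members without overlap between groups, the role lists, the 10 highest and the 3 genes on each side of the expression rule. Of the member symbols, 157 had the same name by gene ID or Entrez number in the reference tables (Sscrofa11.1), 42 did not, among them ZNF354A and ZNF532, and near-identical paralogs may share reads. Of the members, 15 overlap another gene. Alternatives were other pseudocounts, filters, scalings and fits, and leaving out each library. Protein domains and sequences were not analysed here. SETDB1 and CHD4 were named after their values were seen.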

Additional observations from a re-analysis of the deposited data

How the results depend on the processing

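Leaving aside 5 calls of ZNF555, ZNF699 and ZNF704 that the expression rule fixed, 86 of 128 calls on 57 named genes held in every alternative, 42 were lost in at least 1, and none (0) changed sign. The 128 still include the KPT call of ZNF366, whose membership rested largely on the KPT libraries. They also include calls of ZNF385B and ZNF461, whose rises are given above without a test. Counts of members that moved by over 1.5 times were the following. For Stage 3+DMSO against Stage 2, median-ratio rescaling gave 25 higher and 21 lower and quantile normalization 16 and 33, in place of 54 and 12. For Stage 3+DMSO against Stage 1, the minimum of 5 RPKM left 33 higher, with fewer members tested, quantile normalization gave 30 higher and 36 lower, and median-ratio rescaling 34 lower, in place of 55 and 14. For Stage 2 against Stage 1, 15 to 24 members were higher on leaving out single libraries, with 16 without Stage 1 replicate 1 and 15 without Stage 1 replicate 2, in place of 25. The cause of the scaling differences was not tested. Leaving out single libraries gave 48 to 63 higher and 26 to 33 lower with KPT, 39 to 54 and 9 to 12 for Stage 3+DMSO against Stage 2, 40 to 59 and 11 to 19 against Stage 1, and 19 to 29 lower at Stage 2. limma-voom on the recovered reads called 67 members higher and 32 lower with KPT. The added setting without replicate 1 of every group, chosen after seeing the data, gave 57 and 23.

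With the replicate number as a block, 56 members were higher and 29 lower with KPT, 22 and 26 at Stage 2 against Stage 1, 52 and 12 for Stage 3+DMSO against Stage 2, and 53 and 13 against Stage 1. Deviations of same-numbered libraries correlated at -0.071 to 0.075, so the numbers were not treated as pairing. The planned grouping of members by protein domains was not run, since no protein table was used here. Low depth limits ZNF555, ZNF699, ZNF704, ZNF461 and ZNF385B, which rest on few reads.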
